A study of Homo sapiens with 6 samples.

Results

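The genes described here are the matrix metalloproteinases (MMP), the disintegrin metalloproteinases (ADAM and ADAMTS) and the tissue inhibitors of metalloproteinases (TIMP). They were chosen by name: a gene was a member if the array annotation gave its probe set exactly 1 symbol made of MMP, TIMP, ADAM or ADAMTS followed by a number alone. This gave 64 members out of 18417 genes, on 66 probe sets: 22 MMP, 21 ADAM, 17 ADAMTS and 4 TIMP genes. A member with more than 1 probe set is given by its brightest on average.

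MMPs are zinc-dependent enzymes that cut collagens, laminins and other matrix proteins, and they are made as inactive proenzymes. ADAMs sit in the membrane and release the outer parts of growth factors, cytokines, adhesion molecules and receptors, and some of them lack the protease motif. ADAMTS enzymes are secreted and act on proteoglycans, procollagens and other matrix proteins. TIMPs bind and block these enzymes, and in uveal melanoma, a tumour of the pigment cells of the eye, the balance of proteases and inhibitors is studied for its part in invasion.

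The 6 arrays held total RNA from 3 established uveal melanoma lines, named 92.1, Mel 270 plus Mel 290. In the co-culture group each line had grown for 64 h beneath a membrane insert with pores of 0.4 µm that held T cells of healthy volunteers, activated with beads against CD3 and CD28. In the group grown alone the same lines had the same serum-free medium without T cells. There was 1 array per line and culture, so each group had 3 arrays, each line is a single cell line, and the melanoma cells alone were collected. For 92.1 80000 cells were plated, against 100000 for Mel 270 and for Mel 290. Mel 290 had been confluent at the change of medium and the other lines had not. Line, number of cells plated and cell density therefore cannot be told apart. Whether the 3 co-cultures had T cells of the same volunteer is not stated. A difference of T cell donor therefore cannot be told apart from line in the co-cultures.

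Values are log2 signals as deposited, and the 6 arrays had medians between 6.63 and 6.69. A gene was tested if its mean over the arrays reached the filter level of 5.80, the 25th percentile of listed probe sets, which left 13808 genes. Array signals of different probe sets cannot be set against each other, so each gene is compared with itself only. Of 7 melanocyte markers with a probe set, 92.1 and Mel 270 had 6 or 7 at or above the filter level in either culture, whereas Mel 290 had 3 in co-culture and 4 alone, with TYR, TYRP1 and MLANA below it in both. MITF, SOX10 and PMEL were at or above it in both cultures of Mel 290, so the labelled cell type had only part of its defining markers in that line. PMEL was close to the filter level there, with 5.97 in co-culture and 6.10 alone, against 13.08 and 12.55 in 92.1 and Mel 270 alone. MITF also differed between cultures, by -0.79, -2.10 and -0.80 in 92.1, Mel 270 and Mel 290. Of 9 T cell markers 2 reached the filter level in each co-culture and 2 or 3 did alone, and CD3D, CD3E and CD3G lay below it on every array.

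Of the 64 members, 28 lay at or above the filter level on all 6 arrays and 21 lay below it on all 6, with values from 3.16 to 5.72. The 39 tested members were 11 MMP, 13 ADAM, 12 ADAMTS and 3 TIMP genes. MMP1, ADAMTS12 and ADAM21 were among the tested ones through a single line, Mel 290 for the first pair and Mel 270 for ADAM21. MMP3, MMP19, ADAM32 and ADAMTS3 were not tested but reached the level on at least 1 array. Low signals are mostly background, so differences that involve them are imprecise. Outside the MMP family the members below it on all arrays were ADAM2, ADAM5, ADAM6, ADAM18, ADAM28, ADAM29, ADAM30, ADAMTS5, ADAMTS18, ADAMTS19, ADAMTS20 and TIMP4, of which ADAM5 and ADAM6 are annotated as transcribed pseudogenes. ADAM32 had 6.09 in co-cultured 92.1 and 6.13 in 92.1 alone, and at most 4.55 in the other lines.

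Of the 22 MMP genes, 11 were tested and most of the others lay at background. The collagenases MMP8, of neutrophils, and MMP13 had at most 3.42 and 4.51, and the matrilysins MMP7 and MMP26 had at most 3.65 and 3.73. MMP10, a stromelysin, reached at most 5.21, MMP12, the elastase of macrophages, 4.59, MMP20, an enzyme of tooth enamel, 5.59, MMP21 5.59 and MMP27 4.52. The gelatinase MMP2 had 5.60, 5.96 and 6.04 in co-cultures of 92.1, Mel 270 and Mel 290, against 5.65, 5.83 and 5.95 alone, all close to the filter level. MMP11, or stromelysin-3, lay between 6.59 and 6.96 on the 6 arrays, MMP25, which has a lipid anchor, between 6.25 and 6.74, and MMP28 between 5.88 and 6.22. These 3 genes varied by less than 1 log2 unit over lines and cultures.

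**Figure D1:**
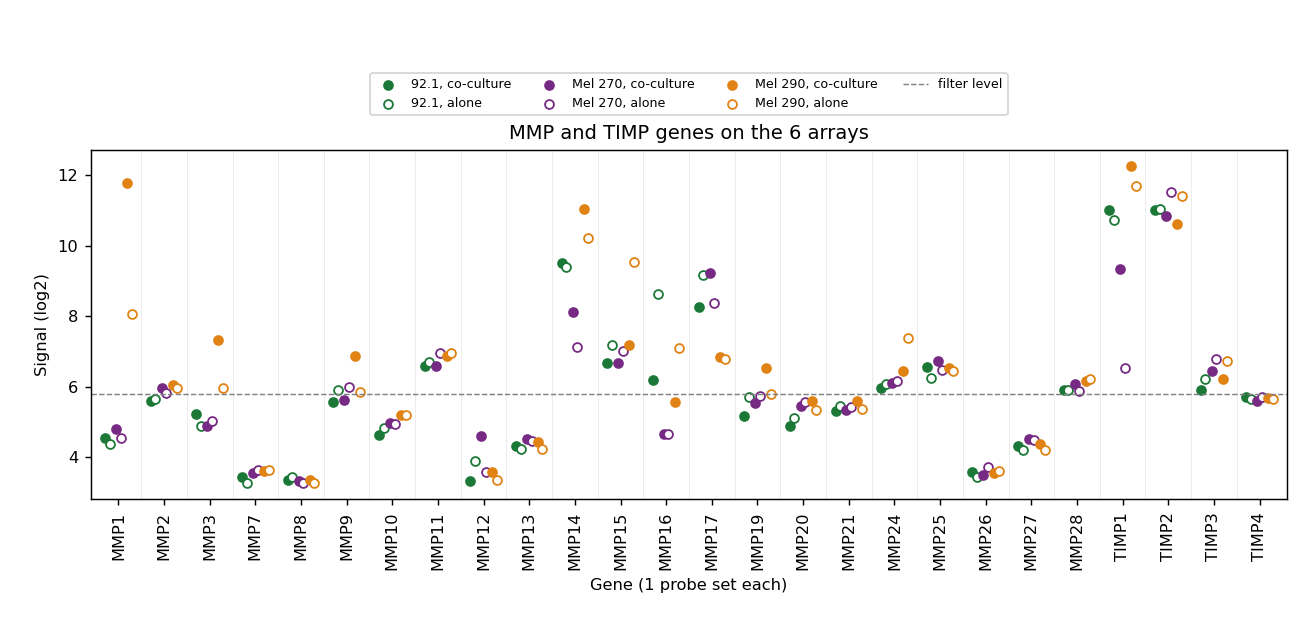
Log2 signal (vertical axis) of the 22 MMP and 4 TIMP genes (horizontal axis) on the 6 arrays, with filled points for co-culture, open points for growth alone, a colour per line and a dashed line at the filter level of 5.80. MMP1 stands at 11.78 in co-cultured Mel 290 and below 5 in the other lines, and TIMP1 is lowest in Mel 270.

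A block of 9 of these genes stands together on chromosome 11, in the order MMP7, MMP20, MMP27, MMP8, MMP10, MMP1, MMP3, MMP12 and MMP13 in the RefSeq gene table. Of these 9 genes MMP1 and MMP3, which are next to each other, were the 2 that reached the filter level on any array, in each case in Mel 290. MMP1, the interstitial collagenase, had 4.54, 4.78 and 11.78 in co-cultures of 92.1, Mel 270 and Mel 290, against 4.37, 4.56 and 8.07 alone. MMP3, or stromelysin-1, which cuts proteoglycans and can activate the MMP1 proenzyme, had 5.21, 4.89 and 7.32 in the same co-cultures, against 4.87, 5.04 and 5.98 alone. Mel 290 was thus the high line for both, and its co-culture was the highest array of both. MMP10, a close relative of MMP3 on the other side of MMP1, had 5.21 in co-cultured Mel 290 and 5.19 alone.

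Promoter sequences were available for 37 members in RefSeq (GRCh38.p14), and the 250 bases before the gene start are shown for 3 of them that bear on these patterns. MMP10 is shown as a neighbour of MMP1 that lay at background, ADAMTS12 as a gene above the filter level in Mel 290 and in no other line, and TIMP1 as the inhibitor with the widest differences. Capitals mark matches on either strand to the AP-1 motif TGANTCA, the ETS motif AGGAAG and the TATA box TATAAA, none of which overlap here.
MMP10 (chr11:102780629-102780878, minus strand): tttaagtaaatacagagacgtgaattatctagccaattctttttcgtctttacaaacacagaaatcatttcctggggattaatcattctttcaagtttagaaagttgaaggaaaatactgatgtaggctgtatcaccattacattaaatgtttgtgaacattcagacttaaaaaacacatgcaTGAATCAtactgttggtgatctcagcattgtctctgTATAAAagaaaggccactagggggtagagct
ADAMTS12 (chr5:33891991-33892240, minus strand): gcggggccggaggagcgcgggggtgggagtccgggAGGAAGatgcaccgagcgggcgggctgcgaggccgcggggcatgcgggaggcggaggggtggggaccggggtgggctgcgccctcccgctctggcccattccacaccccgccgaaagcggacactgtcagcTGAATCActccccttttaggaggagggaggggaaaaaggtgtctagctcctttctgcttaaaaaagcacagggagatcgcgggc
TIMP1 (chrX:47582186-47582435, plus strand): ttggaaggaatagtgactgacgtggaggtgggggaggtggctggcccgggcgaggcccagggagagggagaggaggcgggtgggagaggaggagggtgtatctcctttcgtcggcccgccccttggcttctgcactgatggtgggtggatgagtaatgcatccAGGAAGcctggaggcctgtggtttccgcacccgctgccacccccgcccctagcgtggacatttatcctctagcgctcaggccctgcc
The AP-1 match began 67 bases before the start in MMP10 and 84 bases before it in ADAMTS12, the TATA match of MMP10 began at 31 bases and the ETS match of ADAMTS12 at 215 bases. In TIMP1 the 1 match was that of the ETS motif, at 87 bases. Sites that depart from the letters TGANTCA are not marked, so the lack of an AP-1 match does not show that a promoter has no AP-1 site. The AP-1 motif was present in 4 of 37 member promoters (ADAMTS12, MMP7, MMP10 and MMP20) and in 6.57% of all 35116 promoters. The ETS motif was present in 9 members and in 28.71% of all promoters, the TATA motif in 7 members and in 10.72%, and the GAS motif TTCNNNGAA, a form bound by STAT factors, in 0 members and in 6.57%. Of the 4 members with an AP-1 match, MMP7, MMP10 and MMP20 lay below the filter level on every array, as did 21 of all 64 members. The share among the 37 members with a promoter was not counted, and a link between motif and signal was not tested. The promoters of MMP1, MMP3 and ADAMTS4 were not analysed here. A match describes these letters and is no measure of binding.

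Grown alone, Mel 290 had higher signals than the other lines for a set of matrix-cutting enzymes. Each comparison here is of 1 array with another, so it has no replicate check, and a difference counts at 2-fold or more with the higher value at or above the filter level. Fewer cells expressing a gene and less RNA per cell cannot be told apart in such samples. Mel 290 minus 92.1 gave 11 of 39 tested members higher and 3 lower, against 7.89% of all tested genes higher and 10.2% lower. Mel 290 minus Mel 270 gave 13 higher and 3 lower, against 8.86% higher and 8.83% lower of all tested genes. The line 92.1 minus Mel 270 gave 4 higher and 1 lower, against 6.16% and 3.56%. Members tested partly because 1 line was high had to differ between lines, so these counts are a description. Of 6 mesenchymal markers, 5 reached the filter level in each line alone. Among them PDGFRB was 9.66 in Mel 290, 5.99 in 92.1 and 5.86 in Mel 270, LUM was highest in Mel 270, with 7.94, 6.50 and 10.12 in the same order, and COL1A1, COL1A2 and COL3A1 differed by at most 0.23 between lines. Of 4 epithelial markers, the keratins KRT8 (10.17, 6.39 and 6.71) and KRT18 (9.53, 8.09 and 7.96) were highest in Mel 290, and EPCAM and CDH1 lay below the filter level in every line. None of 4 endothelial markers reached the filter level on any array, and the part of such markers in the line differences was not tested.

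Among the secreted and membrane-bound MMPs, MMP1 alone was 8.07 in Mel 290, 4.37 in 92.1 and 4.56 in Mel 270, which is 13.0-fold and 11.4-fold higher in Mel 290. With low values raised to 5.80 both differences were 2.27 on the log2 scale. MMP14, the membrane protease that activates the MMP2 proenzyme, was 10.23 in Mel 290, 9.39 in 92.1 and 7.11 in Mel 270. Mel 270 was the low line for MMP14, 8.66-fold below Mel 290 and 4.85-fold below 92.1. MMP15, a related membrane MMP, was 9.53 in Mel 290, 7.19 in 92.1 and 7.01 in Mel 270, so Mel 290 stood apart by 5.04-fold and 5.72-fold. MMP24, another membrane MMP known from neurons, was 7.38 in Mel 290, 6.07 in 92.1 and 6.15 in Mel 270.

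For other membrane MMPs, Mel 290 was not the highest line. MMP16 was 7.09 in Mel 290, 8.64 in 92.1 and 4.66 in Mel 270, so all 3 lines were well apart. A further MMP16 probe set had 4.85, 8.58 and 4.53 in these lines, and there Mel 290 lay below the filter level. The high level in 92.1 was thus seen with both probe sets and that in Mel 290 with 1 of them. MMP17, which has a lipid anchor, was 6.78 in Mel 290, 9.18 in 92.1 and 8.37 in Mel 270, so it was 5.29-fold and 3.02-fold lower in Mel 290.

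Among the inhibitors, TIMP1 was the 1 gene at least 2-fold apart between lines. TIMP1, a secreted inhibitor of most soluble MMPs, was 11.70 in Mel 290, 10.74 in 92.1 and 6.54 in Mel 270, so Mel 270 was 35.7-fold below Mel 290 and 18.3-fold below 92.1. TIMP2, which blocks MMPs and also takes part in the activation of MMP2 by MMP14, was 11.41, 11.04 and 11.52 in the same lines. TIMP3, which binds the matrix, inhibits ADAM17 and is mutated in a dystrophy of the retina, was 6.72, 6.22 and 6.77, and TIMP4 was 5.66, 5.64 and 5.72, below the filter level. For TIMP2, TIMP3 and TIMP4 the lines were less than 2-fold apart.

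**Figure D2:**
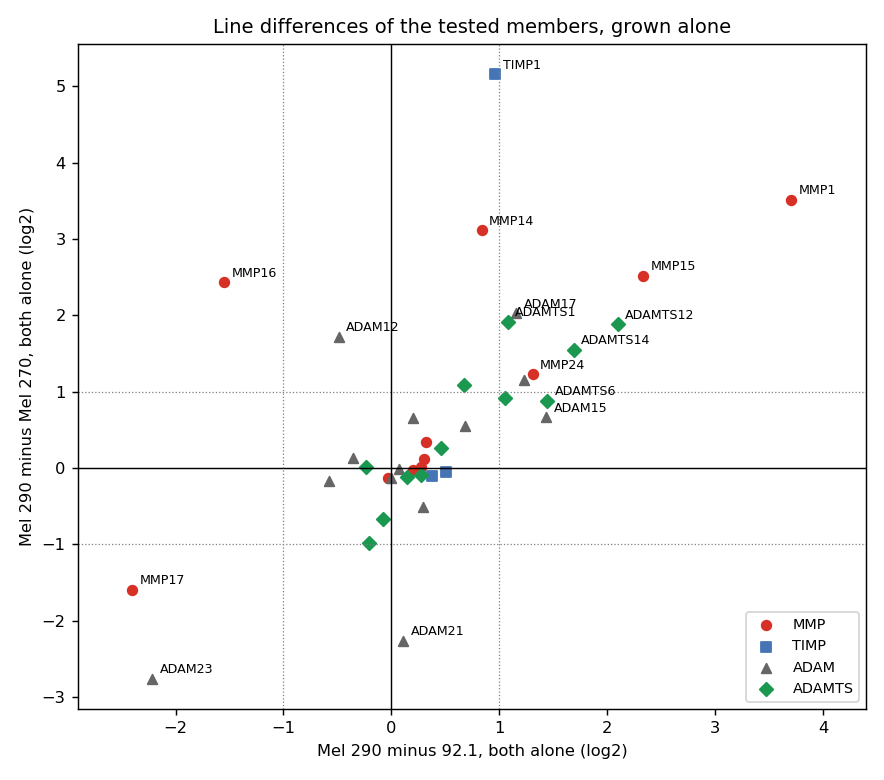
Each point is a tested member grown alone, with Mel 290 minus 92.1 on the horizontal axis and Mel 290 minus Mel 270 on the vertical axis, both in log2 units from 1 array per line, and dotted lines at 2-fold. MMP1, MMP15 and ADAMTS12 lie at the upper right, ADAM23 and MMP17 at the lower left, and TIMP1 and MMP14 differ mainly from Mel 270.

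ADAM genes differed in both directions. ADAM17, the enzyme that releases TNF and ligands of the EGF receptor, was 10.79 in Mel 290, 9.63 in 92.1 and 8.76 in Mel 270. ADAM10, which cuts Notch and cadherins, was 11.80, 11.60 and 11.14 in the same lines, and ADAM9 was 12.00, 11.32 and 11.44, each less than 2-fold apart. ADAM15 was 9.69, 8.25 and 9.02, lowest in 92.1. ADAM12, known from muscle and bone development, was 7.72 in Mel 290, 8.20 in 92.1 and 5.99 in Mel 270. ADAM23, which lacks the protease motif and acts as an adhesion protein in the brain, was 8.18 in Mel 290, 10.39 in 92.1 and 10.94 in Mel 270, that is 4.64-fold and 6.76-fold lower in Mel 290. ADAM20 was 7.18, 5.96 and 6.03, and ADAM21 was 4.84, 4.73 and 7.10, but these related genes can share probes with each other and with a pseudogene, so they are uncertain.

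Most ADAMTS genes that differed were high in Mel 290. ADAMTS12, which cuts the cartilage protein COMP, was 7.39 in Mel 290, 5.29 in 92.1 and 5.50 in Mel 270. ADAMTS1, which cuts versican and aggrecan, was 9.03, 7.94 and 7.11 in the same lines. ADAMTS14 and ADAMTS2, which trim procollagens, were 7.77, 6.08 and 6.23 for the first, and 7.65, 6.60 and 6.73 for the second. ADAMTS6 was 7.12, 5.68 and 6.24, and ADAMTS9, a versican-cutting enzyme, 6.35, 5.68 and 5.26. Mel 290 was the highest line for these 6 genes, with distances to the next line between 0.67 and 1.88 log2 units. ADAMTS3, a procollagen peptidase below the filter by its mean, was 5.30 in Mel 290, 6.53 in 92.1 and 5.57 in Mel 270.

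The lines were also compared over both cultures in the limma fit, in which the spread is the unequal response of the lines to co-culture and not that of repeat cultures. With adjusted p under 0.05, Mel 290 minus 92.1 had 9 tested members higher and 1 lower, or 10 of 39, against 23.5% of all tested genes. Mel 290 minus Mel 270 had 12 higher and 4 lower, or 16 of 39, against 22.8%. The line 92.1 minus Mel 270 had 2 higher and 1 lower, against 8.05%. The shares of members were 25.6%, 41.0% and 7.69% in these 3 pairs, so they were near the background in the first and the last.

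MMP1, ADAMTS12 and ADAM21 are among these counts, but each was tested only because 1 line was high, so their differences are a description with no test. MMP1 in Mel 290 exceeded that in 92.1 by 5.47 and that in Mel 270 by 5.25, and by 4.12 in each case with low values raised to 5.80. ADAMTS12 in Mel 290 exceeded that in 92.1 by 2.75 and that in Mel 270 by 2.72, and by 2.26 with low values raised. ADAM21 was -2.99 for Mel 290 minus Mel 270 and -3.19 for 92.1 minus Mel 270, and -2.07 for each with low values raised.

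MMP14 passed in limma in all 3 pairs, with Mel 290 minus 92.1 at 1.18 (adjusted p = 0.0303), Mel 290 minus Mel 270 at 3.02 (adjusted p = 0.00303) and 92.1 minus Mel 270 at 1.83 (adjusted p = 0.0232). ADAMTS14, ADAMTS6, ADAMTS2 and ADAM20 were higher in Mel 290 than in each other line, by 0.82 to 1.64. ADAMTS9 in Mel 290 exceeded that in 92.1 by 1.32 and that in Mel 270 by 1.64. Without Mel 290 its mean lay below the filter level, so these 2 differences are also a description with no test. MMP17 was lower in Mel 290 than in 92.1, with a difference of -1.92 (adjusted p = 0.0323), and than in Mel 270, with -2.00 (adjusted p = 0.0301).

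Other members passed in a single pair or set Mel 270 apart. TIMP1 in Mel 290 exceeded that in Mel 270 by 4.05 (adjusted p = 0.0136), and 92.1 minus Mel 270 was 2.93 without passing (adjusted p = 0.0561). ADAM12 was lower in Mel 270, by 1.53 against Mel 290 (adjusted p = 0.013) and by 1.81 against 92.1 (adjusted p = 0.0205). ADAM17 (1.50), ADAMTS1 (2.60) and ADAM23 (-2.67) passed for Mel 290 minus Mel 270, as did ADAMTS10 (lower in Mel 290, adjusted p = 0.0124), and ADAM15 (1.28) for Mel 290 minus 92.1. MMP15 and MMP16 did not pass in any pair.

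Between co-culture with activated T cells and growth alone, no member had a difference that passed the test over the 3 lines. In limma with the line as a block, 0 of 39 tested members passed an adjusted p of 0.05, against 0.449% of all tested genes. At an unadjusted p under 0.05 there were 5 members, or 12.8%, against 20% of all tested genes, and the lowest adjusted p of a member was 0.181. With 3 pairs, the smallest p that an exact permutation test allows is 0.25. Of the tested members 8 were higher in co-culture in 3 of 3 lines and 12 lower in 3 of 3, against 16.2% and 25.5% of all tested genes. The median of the mean differences over the lines was -0.0118 for the 39 tested members and -0.0407 for all tested genes.

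Within single lines some members were far apart between cultures, each shown by 1 array per culture and so with no replicate check. Over all lines, 13 of 39 tested members were at least 2-fold apart in a line, and MMP16 was the 1 member for which this held in more than 1 line. The same count over all tested genes was not made, so the 13 cannot be read as an excess. It should not be set against the shares of single lines that follow. In 92.1 there were 0 higher and 2 lower, against 3.62% higher and 2.7% lower of all tested genes. In Mel 270 there were 5 higher and 1 lower, against 5.26% and 4.5%, and in Mel 290 4 higher and 2 lower, against 2.06% and 2.28%. The 4 higher in Mel 290 were MMP1, ADAMTS12, ADAMTS9 and MMP9, and without Mel 290 the mean of each lay below the filter level. The same held for ADAM21 without Mel 270 and for MMP16 without 92.1. Such members were tested because of the line in which they are counted, so these counts are a description and show no excess. The other 26 members stayed between -0.94 and 0.87 in every line.

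ADAMTS4, an aggrecanase that cuts the proteoglycans aggrecan, versican and brevican, had the widest difference of all members, and in Mel 270. It had 5.64, 10.94 and 6.38 in co-cultures of 92.1, Mel 270 and Mel 290, against 5.57, 5.94 and 5.85 alone. All 3 arrays grown alone were near the filter level, and co-cultured Mel 270 was 32.0-fold above its own culture alone, while co-cultured 92.1 and Mel 290 were 1.05-fold and 1.45-fold above theirs. The mean difference of 1.87 ± 2.72 (SD, n = 3 lines, adjusted p = 0.381 in limma) was smaller than its spread, and without Mel 270 it was 0.30. ADAMTS4 ranked 32 among all tested genes by its difference in Mel 270.

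MMP1 showed its difference in Mel 290, the line with a signal above background in both cultures. Co-cultured Mel 290 stood 13.1-fold above Mel 290 alone, and the other lines differed by 0.17 and 0.23 on the log2 scale, at background. Over the lines the difference was 1.37 ± 2.03 (SD, n = 3, adjusted p = 0.39 in limma). MMP3 was 2.53-fold higher in co-cultured Mel 290, and 0.34 and -0.15 apart in 92.1 and Mel 270. MMP9, the gelatinase linked to inflammation, had 5.57, 5.62 and 6.88 in co-cultures of 92.1, Mel 270 and Mel 290, against 5.89, 5.99 and 5.86 alone. Co-cultured Mel 290 was the highest array of MMP9, and the other arrays lay close to the filter level. It exceeded Mel 290 alone by 1.02, which became 0.92 after cyclic loess and was then under 2-fold.

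TIMP1 had 11.01, 9.34 and 12.28 in co-cultures of 92.1, Mel 270 and Mel 290, against 10.74, 6.54 and 11.70 alone. It was higher in all 3 lines, by 0.27, 2.79 and 0.58 in 92.1, Mel 270 and Mel 290, the second of these being 6.94-fold, and the order of the lines was the same in both cultures. The mean difference was 1.21 ± 1.38 (SD, n = 3, adjusted p = 0.281 in limma), and without Mel 270 it was 0.42. TIMP2 had 11.01, 10.84 and 10.63 in co-cultures, against 11.04, 11.52 and 11.41 alone, a mean difference of -0.50 ± 0.41 (adjusted p = 0.239). TIMP3 differed by -0.30, -0.33 and -0.50 in 92.1, Mel 270 and Mel 290, the most even difference among the TIMPs (-0.38 ± 0.10, adjusted p = 0.195). Its further probe set, below the filter level, differed by -0.34, -0.14 and -0.06. TIMP4 differed by at most 0.12 in either direction.

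**Figure D3:**
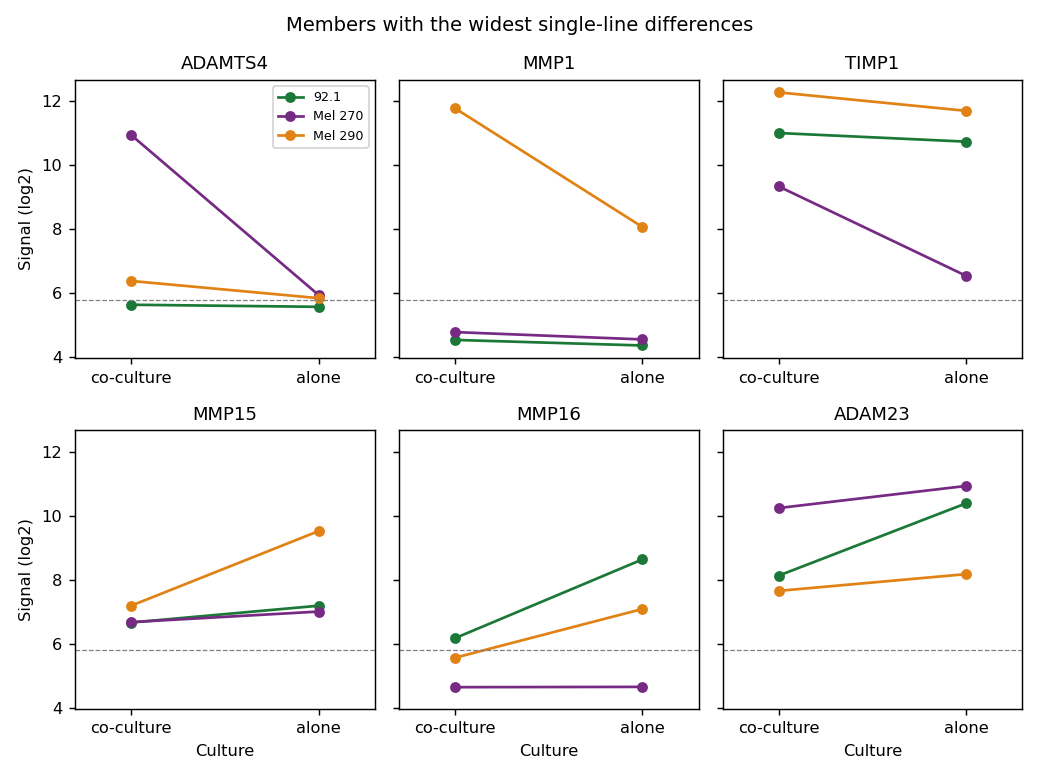
Log2 signal (vertical axis) of 6 members in co-culture (left) and alone (right), with 1 line and a pair of points for each cell line and a dashed line at the filter level of 5.80. ADAMTS4 and TIMP1 are steepest in Mel 270, MMP1 and MMP15 in Mel 290, and MMP16 and ADAM23 in 92.1.

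The membrane-bound MMPs went in different directions. MMP15 had 6.67, 6.68 and 7.20 in co-cultures of 92.1, Mel 270 and Mel 290, against 7.19, 7.01 and 9.53 alone. It was lower in each line, 5.03-fold in Mel 290, with a mean of -1.06 ± 1.10 (SD, n = 3, adjusted p = 0.25) and of -0.43 without Mel 290. MMP16 had 6.18, 4.65 and 5.57 in co-cultures of 92.1, Mel 270 and Mel 290, against 8.64, 4.66 and 7.09 alone. It was 5.51-fold lower in 92.1 and 2.88-fold lower in Mel 290, and at background in both cultures of Mel 270. Its further probe set differed by -2.79 in 92.1 and by -0.25 in Mel 290, where it lay below the filter level, so the size in Mel 290 depends on the probe set. The mean difference of MMP16 was -1.33 ± 1.24 (adjusted p = 0.21), and without Mel 270 it was -1.99 (adjusted p = 0.0584).

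MMP14 had 9.50, 8.12 and 11.03 in co-cultures of 92.1, Mel 270 and Mel 290, against 9.39, 7.11 and 10.23 alone, higher in each line by 0.11, 1.00 and 0.81. Its mean of 0.64 ± 0.47 (SD, n = 3, adjusted p = 0.188) exceeded its spread without passing. MMP17 had 8.26, 9.24 and 6.84 in the same co-cultures, against 9.18, 8.37 and 6.78 alone, lower in 92.1 and higher in Mel 270. MMP24 differed by -0.94 in Mel 290, -0.12 in 92.1 and -0.04 in Mel 270. MMP19, below the filter by its mean, had 6.53 in co-cultured Mel 290 and 5.80 alone. MMP12 differed by 1.02 in Mel 270, wholly at background.

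Among ADAM genes the largest difference was that of ADAM23. It had 8.13, 10.25 and 7.66 in co-cultures of 92.1, Mel 270 and Mel 290, against 10.39, 10.94 and 8.18 alone. It was lower in each line, by 4.79-fold in 92.1 and by 1.61-fold and 1.44-fold in Mel 270 and Mel 290, and its mean of -1.16 ± 0.96 (SD, n = 3) had the lowest adjusted p of all tested members, 0.181 in limma. Without 92.1 this mean was -0.61. Of the related ADAMs without the protease motif, ADAM11 differed by -0.45, -0.21 and -0.0068 in 92.1, Mel 270 and Mel 290 (adjusted p = 0.472 in limma) and ADAM22 by -0.47, -0.0131 and -0.82 (adjusted p = 0.293), so each was close to 0 in 1 line. The sheddases differed less: ADAM10 by -0.28, 0.50 and -0.39 in 92.1, Mel 270 and Mel 290, and ADAM17 by 0.34, 0.84 and -0.22. ADAM19, which can release neuregulin, had 9.05 in co-cultured Mel 270 and 7.93 alone, and differed by 0.42 and -0.02 in 92.1 and Mel 290. ADAM21 had 8.64 in co-cultured Mel 270 and 7.10 alone, and lay below the filter level in the other lines. ADAM9, ADAM12, ADAM15, ADAM20, ADAM33 and ADAM8 differed by at most 0.54 in either direction in each line.

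**Figure D4:**
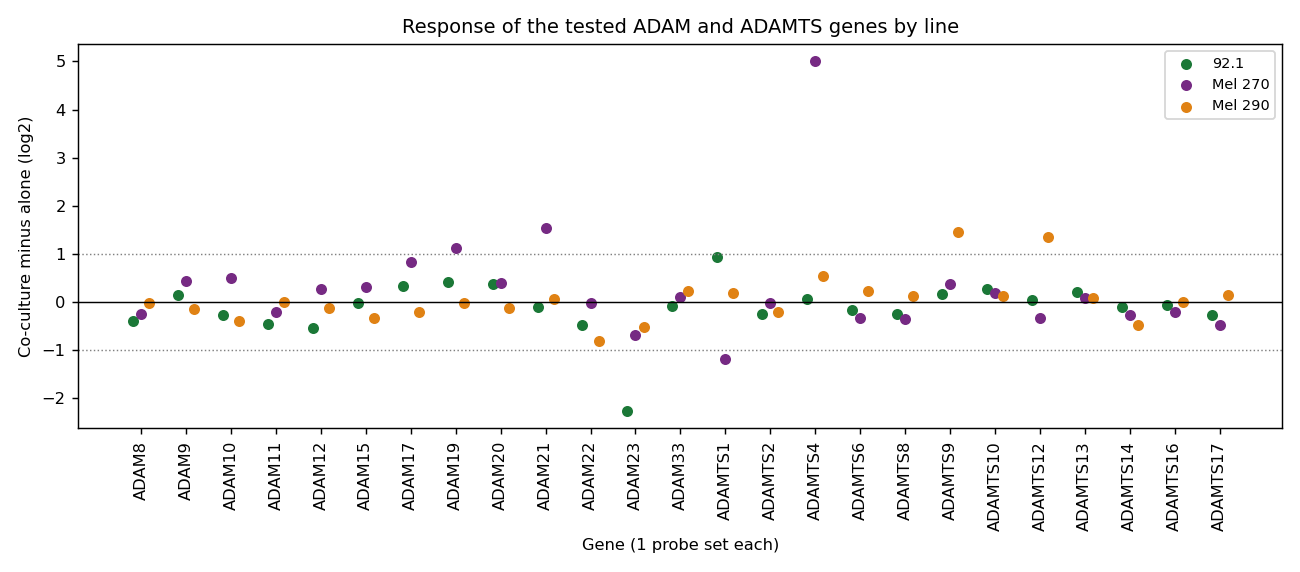
Co-culture minus alone in log2 units (vertical axis) for each tested ADAM and ADAMTS gene (horizontal axis), with 1 point per cell line and dotted lines at 2-fold. ADAMTS4 in Mel 270 (5.00) and ADAM23 in 92.1 (-2.26) stand furthest from 0.

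The other proteoglycan-cutting ADAMTS genes did not share the pattern of ADAMTS4. ADAMTS9 had 5.85, 5.63 and 7.82 in co-cultures of 92.1, Mel 270 and Mel 290, against 5.68, 5.26 and 6.35 alone, with its widest difference, 2.76-fold, in Mel 290. ADAMTS1 had 8.88, 5.93 and 9.21 in co-cultures, against 7.94, 7.11 and 9.03 alone, and was thus 1.92-fold higher in 92.1 and 2.27-fold lower in Mel 270. In Mel 270, where ADAMTS4 was higher by 5.00, ADAMTS1 differed by -1.18. ADAMTS5 and ADAMTS20 lay below the filter level on every array, and ADAMTS6, ADAMTS8, ADAMTS16 and ADAMTS17 differed by at most 0.47 in either direction. ADAMTS12 had 5.33, 5.18 and 8.73 in co-cultures, against 5.29, 5.50 and 7.39 alone, so it was 2.54-fold higher in Mel 290 and at background elsewhere. The procollagen peptidases ADAMTS2 and ADAMTS14 were lower in 3 of 3 lines by at most 0.48, and ADAMTS10 and ADAMTS13, the enzyme that cuts von Willebrand factor, higher in 3 of 3 by at most 0.27.

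Genes that work with these enzymes were read from 6 lists chosen for their roles, and none of their members passed in limma. The counts at an unadjusted p under 0.05 given for these lists stand beside 20% of all tested genes. The plasminogen system, which activates several MMP proenzymes, had 0 of 5 tested genes called and 1 at an unadjusted p under 0.05. Its activator PLAT had 10.03, 11.32 and 8.27 in co-cultures of 92.1, Mel 270 and Mel 290, against 10.07, 8.35 and 7.40 alone, 7.82-fold higher in Mel 270. SERPINE2, an inhibitor of plasminogen activators and thrombin, was 5.35-fold higher in co-cultured Mel 270, with 12.27 against 9.85 alone, and 0.57 and 0.43 higher in 92.1 and Mel 290. PLGRKT, a plasminogen receptor, differed by 0.37 ± 0.28 (SD, n = 3). PLAT, SERPINE2, TIMP1 and ADAMTS4 each had their widest difference in Mel 270, but they were picked from this list and the members. Mel 270 also had the largest share of all tested genes at least 2-fold higher in co-culture. That share was 5.26%, against 3.62% in 92.1 and 2.06% in Mel 290.

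Of 8 tested inhibitors and cell surface regulators 0 were called and 2 had an unadjusted p under 0.05. TFPI2, a matrix-bound inhibitor of plasmin and other serine proteases, had 4.26, 4.19 and 11.82 in co-cultures of 92.1, Mel 270 and Mel 290, against 4.33, 4.34 and 6.62 alone. Like MMP1 it was above the filter level in Mel 290 alone of the lines, and there it was 36.8-fold higher in co-culture. A2M, a blood protein that traps proteases, had 13.34, 13.19 and 5.25 in co-cultures, against 12.15, 10.83 and 5.17 alone, so it was 2.29-fold and 5.14-fold higher in 92.1 and Mel 270 and below the filter level in Mel 290. CAV1, the coat protein of caveolae, was lower in 3 of 3 lines (-1.33 ± 0.36, adjusted p = 0.0665). RECK, a membrane inhibitor of MMPs, differed by -0.0028 ± 0.39 (SD, n = 3).

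**Figure D5:**
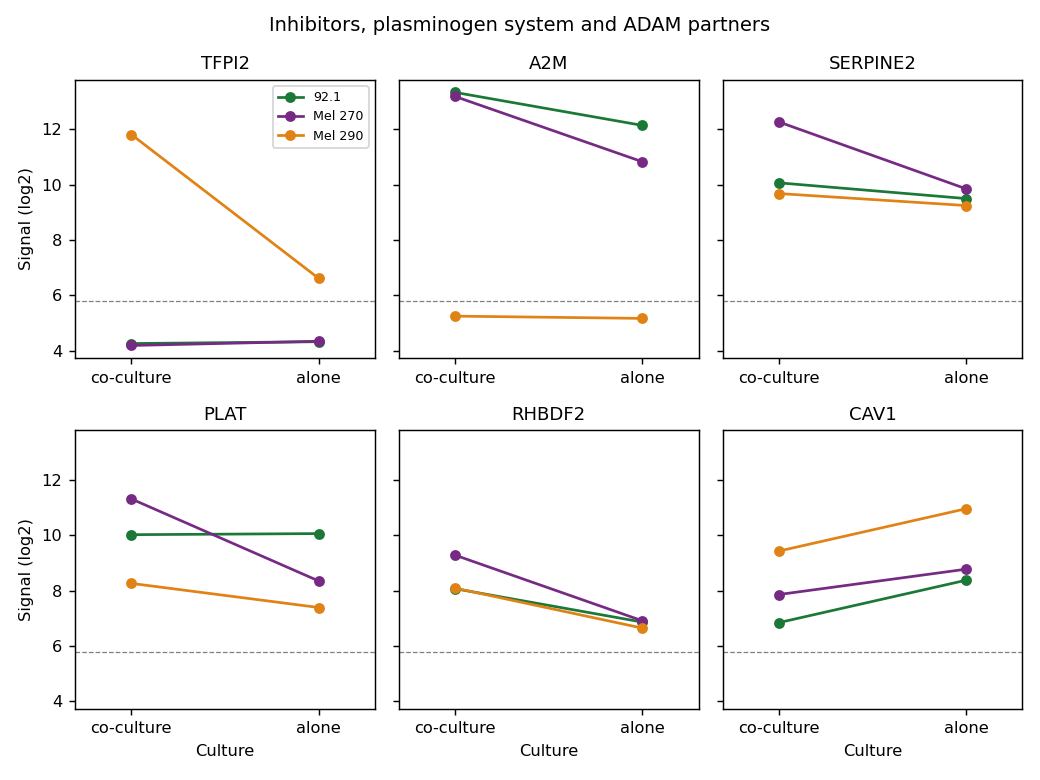
Log2 signal (vertical axis) of 6 genes that act beside the members, in co-culture (left) and alone (right), with 1 line and a pair of points for each cell line and a dashed line at 5.80. TFPI2 differs in Mel 290, SERPINE2 and PLAT most in Mel 270, and RHBDF2 and CAV1 lie apart between cultures in all 3 lines.

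Of 11 tested convertases and ADAM partners 0 were called and 3 had an unadjusted p under 0.05. RHBDF2, which guides ADAM17 to the cell surface, was higher in 3 of 3 lines by 1.21, 2.37 and 1.45 in 92.1, Mel 270 and Mel 290 (1.68 ± 0.62, adjusted p = 0.0752). The tetraspanins TSPAN5 and TSPAN10, partners of ADAM10, were lower in 3 of 3 lines (-0.67 ± 0.43 and -0.58 ± 0.24), whereas the mean differences of the other tetraspanins listed were 0.55 for TSPAN15, 0.32 for TSPAN17, 0.13 for TSPAN33 and -0.03 for TSPAN14. Of 17 shed substrates 0 were called and 3 had an unadjusted p under 0.05 (ICAM1, CXCL16 and TNF). ICAM1, an adhesion molecule for leukocytes, differed by 2.88 ± 1.12 (SD, n = 3, adjusted p = 0.0713) and the chemokine CXCL16 by 1.25 ± 0.48 (adjusted p = 0.0822). VCAM1, a related adhesion molecule, differed by 2.15 ± 2.44 (adjusted p = 0.272), with 4.91 in 92.1 against 0.28 in Mel 270 and 1.27 in Mel 290.

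Of 12 matrix substrates 0 were called and 1 had an unadjusted p under 0.05. FN1, or fibronectin, was 5.45-fold and 5.63-fold higher in co-cultured 92.1 and Mel 270 and 1.05-fold higher in Mel 290 (1.67 ± 1.38, adjusted p = 0.173). The proteoglycan VCAN, a substrate of ADAMTS4, was 2.98-fold lower in co-cultured Mel 290, with 4.78 against 6.36 alone. The lower of these values is below the filter level, so the size is imprecise. In Mel 270, the line with the wide ADAMTS4 difference, VCAN lay below the filter level in both cultures (4.55 and 4.78 alone). BCAN was 2.92-fold lower in 92.1. Of 11 AP-1 and ETS factors, which are known to drive MMP1, MMP3 and MMP9, 0 were called and 5 had an unadjusted p under 0.05. JUN was higher by 1.59, 2.12 and 1.21 in 92.1, Mel 270 and Mel 290 (adjusted p = 0.065), JUNB by 1.73 ± 0.56 (adjusted p = 0.0665) and FOSL2 by 1.53 ± 1.14. FOSL1 differed by -0.05, -0.01 and 0.65 in 92.1, Mel 270 and Mel 290, and JUND was higher by 0.50 ± 0.18. FOS went the other way from FOSL1, with 1.09, 1.05 and -0.16 in the same lines, and FOSB differed by 0.16 ± 0.34. The ETS factors ETV4 and ETV5 were instead lower in 3 of 3 lines, by -0.51 ± 0.46 and -0.76 ± 0.65. ETV5 is among the 5 with an unadjusted p under 0.05. ETS1 and ETS2 differed by 0.38 ± 0.79 and 0.29 ± 0.55, with negative differences in 92.1.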

How the data were processed

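Affymetrix Expression Console 1.2.0.20 made the log2 values that the authors deposited, per the submitters' processing notes. How background, summarization and normalization were handled is not given in the sources used here. Values were used as deposited. Of 33297 probe sets 21214 were listed in the array annotation, 19460 with 1 symbol and 1754 with several, and 19429 of the first matched a RefSeq symbol. One probe set per gene was kept (highest mean).

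Co-culture and line were fitted over 13808 genes with limma 3.58.1 in R 4.3.3 (lmFit, eBayes, two-sided) and a term for each line, since both groups hold the same lines. Deviations from the group means correlated at 0.74 to 0.83 within lines. There were 2 residual degrees of freedom and a prior of 3.10, and p-values were adjusted by Benjamini-Hochberg. The spread behind them is the unequal response of the lines to co-culture, since no line had repeat cultures. The code was tested on simulated data. The number of arrays limits the precision.

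The naming rule took every MMP and TIMP, ADAM and ADAMTS genes at least 2-fold apart between cultures or lines or with the highest signals, and the 3 largest mean differences of each list. A few more, RECK, TNF, FOSL1, 4 tetraspanins and the ADAM and ADAMTS genes given by their ranges, were named after their values were seen. So were FOS, FOSB, JUND, ETS1, ETS2, ETV4 and ETV5. Members and lists were chosen with earlier results of these data known. Probe sets with several symbols (MMP23A with MMP23B, ADAM21P1 with ADAM21) were left out. Alternatives were other filters, cyclic loess, an intensity trend, raised low values, averaged probe sets, no block, and each line left out.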

Additional observations from a re-analysis of the deposited data

Results flagged for a closer look

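ADAMTS1 and MMP17 stood out because their differences between cultures had opposite signs in 92.1 and Mel 270, each at least 1.5-fold. ADAMTS1 differed by 0.94 in 92.1 and by -1.18 in Mel 270, a gap of 2.12, with 0.19 in Mel 290. MMP17 differed by -0.92 in 92.1 and by 0.87 in Mel 270, a gap of -1.78, with 0.06 in Mel 290. Each value rests on 1 array per culture, and the difference between lines was not tested.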

How the results depend on the processing

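No member was called for co-culture under any of the 10 alternative fits, and the lowest adjusted p among them was 0.0584 (MMP16 without Mel 270). Over all tested genes 62 were called, 18 with no replicate block and 41 after cyclic loess. Members with an unadjusted p under 0.05 numbered 5, against 1 with no replicate block and 3 with averaged probe sets. Leaving out a line gave 4 to 7 of them. Of 355 single-member values 11 changed sign, none of them called. For line differences over both cultures, a filter at the median left 3 (from 10) for Mel 290 minus 92.1 and 8 (from 16) for Mel 290 minus Mel 270, because fewer members were then tested, and no filter gave 5 (from 3) for 92.1 minus Mel 270. ADAMTS9 lost its call against 92.1 with no filter (adjusted p = 0.0543), after cyclic loess (0.0561) and with low values raised (0.0811), and against Mel 270 with low values raised (0.0797). ADAM20 lost its call against Mel 270 after cyclic loess (0.0515) and ADAM21 its call between 92.1 and Mel 270 with low values raised (0.0528). Members at least 2-fold apart between cultures numbered 2, 6 and 6 in 92.1, Mel 270 and Mel 290. At 1.5-fold they were 4, 10 and 10, with a filter at the median 1, 3 and 1, and with averaged probe sets 1 in 92.1. Alone, 14 members for Mel 290 minus 92.1 became 6, 16 for Mel 290 minus Mel 270 became 8 and 5 for 92.1 minus Mel 270 became 3 with a filter at the median, and the last became 12 at 1.5-fold. With no filter on the mean, an alternative chosen after seeing the data, the counts between cultures were 2, 6 and 7.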
